A study of Homo sapiens with 12 samples.

Results

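The 43 genes described here encode proteins that make ribosomes in the nucleolus: proteins of the small nucleolar ribonucleoprotein particles (snoRNPs), RNA polymerase I and its initiation factor, and the factors that process and assemble ribosomal RNA (rRNA). They were listed by name, with earlier results of these data known, and all 43 were found among the 58735 genes measured. For the tests, 41 of them passed a filter of at least 1 FPKM (reads per gene after scaling for its length and for the size of the library) in at least 3 libraries; NOP2 and PWP2 did not. By role the 43 comprised 3 box C/D snoRNP proteins, 4 box H/ACA snoRNP proteins, 1 snoRNP chaperone, 4 genes of RNA polymerase I, 16 small-subunit factors, 10 large-subunit factors and 5 nucleolar proteins with several roles.

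SEM, a cell line of acute lymphoblastic leukaemia of the B cell precursor type, gave 12 RNA libraries in 4 groups with 3 libraries each: wild type (WT) untreated, WT with AraC, IKZF1 knockout (KO) untreated and KO with AraC. AraC is cytarabine, a nucleoside analogue that is built into DNA and blocks its synthesis, given at 1 µM for 16 hours. Ikaros, the product of IKZF1, is a DNA-binding regulator of lymphoid development, and the series asks by its title how its deletion relates to resistance to AraC. The labels name the knockout only as IKZF1 Knockout, with homo in the short library names. They do not say how many knockout lines there were or how the knockout was made. Nor do they say that numbered replicates were separate cultures, so the spread behind the p-values may be technical.

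Ribosome production starts when RNA polymerase I transcribes the rRNA genes. The transcript is modified at sites that snoRNPs choose by base pairing, cut, folded by helicases and assembled with ribosomal proteins into a small and a large subunit. Growing cells and many leukaemias have high nucleolar activity, and MYC, a transcription factor that binds the E-box letters CACGTG, is a known activator of many genes of this pathway.

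Each library held 16342979 to 22733932 reads assigned to genes. All tests were limma fits of log2(FPKM + 0.5) over the 12 libraries with Benjamini-Hochberg adjustment over 13300 tested genes and a threshold of 0.05, and each difference is on that log2 scale. IKZF1 itself measured 22.1, 22.6 and 22.4 FPKM in untreated WT and 20.5, 21.5 and 21.3 FPKM in untreated KO libraries (log2 difference -0.08, 95% interval -0.16 to 0.00, adjusted p = 0.12), so its RNA level does not check the genotype, and KO below means the libraries labelled so. All 9 B cell precursor markers were at 1 FPKM or more in untreated WT and 8 of 9 in each other group, DNTT being the one below. Of the other lineages, 4 of 5 T cell markers were below 1 FPKM in every group while TRAC was at 71.3, 73 and 76.8 FPKM in untreated WT, the summed erythroid markers reached at most 0.0295 FPKM, the summed myeloid markers reached at most 8.49 FPKM, and the summed fibroblast markers between 5.67 and 7.99 FPKM, mostly PDGFRB. AraC replicate 3 of KO stood apart: the chi-square per degree of freedom of its reads against its group's other libraries was 6.87 and 8.57, against 2.24 to 4.42 for the other pairs, and it had the highest value of its group in 29 of the 41 tested genes. Results that rest on it are given with and without it.

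Short windows around the transcription start show what many of these genes share in sequence. RefSeq promoter entries (GRCh38.p14, 250 bases before the start to 50 after it) matched 39 of the 43 genes; NOLC1, RRP12, NOP58 and DDX18 had none. The E-box CACGTG, which reads the same on both strands, was present for 18 of the 39 genes (46.2%). It was present for 13.1% of 8696 matched tested genes and for 8.77% of all 27305 matched genes. A gene was counted once if any of its windows held the motif. In 17 of the 18 genes a copy lay within 50 bases of the start. Positions in other genes were not computed, so this is a description of the listed genes only. The 30-base stretches below are the 12 tested genes with a copy within 20 bases of the start. They are read 5′ to 3′ on the gene's strand with the E-box in capitals. The core and its place near the start recur because the stretches were chosen by them, and the letters around the core differ.
WDR43, chr2:28894658-28894687, plus strand: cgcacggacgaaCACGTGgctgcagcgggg
RRP9, chr3:51941892-51941921, minus strand: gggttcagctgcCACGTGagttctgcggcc
FBL, chr19:39846356-39846385, minus strand: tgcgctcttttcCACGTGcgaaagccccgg
GNL3, chr3:52686026-52686055, plus strand: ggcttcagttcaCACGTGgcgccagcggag
UTP20, chr12:101280083-101280112, plus strand: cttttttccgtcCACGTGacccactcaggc
NOP10, chr15:34343130-34343159, minus strand: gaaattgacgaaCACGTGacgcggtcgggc
PES1, chr22:30591880-30591909, minus strand: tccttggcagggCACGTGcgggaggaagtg
MRTO4, chr1:19251807-19251836, plus strand: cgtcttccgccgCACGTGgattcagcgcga
NAT10, chr11:34105602-34105631, plus strand: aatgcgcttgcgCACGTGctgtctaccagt
NOP14, chr4:2963374-2963403, minus strand: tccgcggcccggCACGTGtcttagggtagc
IMP4, chr2:130342900-130342929, plus strand: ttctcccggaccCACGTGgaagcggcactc
UTP4, chr16:69132621-69132650, plus strand: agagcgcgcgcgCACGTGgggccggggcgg

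For UTP20, a protein of the small-subunit processome, the whole stretch before the start is shown as an example of such a promoter (chr12:101279855-101280104, plus strand, RefSeq GRCh38.p14), with the E-box in capitals at its end.
UTP20 upstream: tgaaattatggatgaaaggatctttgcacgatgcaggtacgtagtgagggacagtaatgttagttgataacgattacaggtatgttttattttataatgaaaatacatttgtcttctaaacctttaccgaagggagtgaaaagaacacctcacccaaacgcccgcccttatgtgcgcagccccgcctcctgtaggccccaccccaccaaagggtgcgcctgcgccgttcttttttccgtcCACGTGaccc

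The other 8 motifs were searched on both strands. TTCCGG was present for 56.4% of the 39 genes against 37.3% of tested genes and 20.1% of all genes. CGGAAG, which overlaps it, was in 56.4% against 41.3% and 22.6%. ATGGCGGC was in 15.4% against 8.12% of tested genes, GCGCGTG in 20.5% against 13.5%, CGCATGCG in 7.69% against 4.99% and GGCGGAAG in 7.69% against 7.99%. CTTTCC was in 17.9% against 32.5% and TATAAA in 2.56% against 7.62%. These shares are descriptions of the letters in the windows, and the motifs were chosen with results of these data known.

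AraC lowered nearly the whole group in both genotypes. In WT, 40 of the 41 tested genes fell and 1, RRN3, rose, with a median log2 difference of -0.50; over all tested genes 25.6% fell, 24.1% rose and the median was -0.01. In KO all 41 fell, with a median of -0.55, against 24.7% of all tested genes falling, 19.8% rising and a median of -0.03. Without KO AraC replicate 3 the 41 still fell, with a median of -0.57. The AraC libraries lay wholly below the untreated ones for 40 genes in WT (31.1% of all tested genes did so) and for 41 in KO (28% did so). In bulk RNA, fewer cells of a type and less RNA per cell cannot be told apart.

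Markers of cell type moved with AraC as well. The 9 B cell precursor markers summed to 613 to 635 FPKM in untreated WT and 411 to 441 FPKM with AraC, and to 880 to 884 and 622 to 633 FPKM in KO; 8 of the 9 fell in WT (median -0.41) and 6 in KO (median -0.40). The 5 myeloid markers summed to 3.88 to 5.18 FPKM in untreated WT and 6.91 to 8.49 FPKM with AraC, and to 1.55 to 2.12 and 2.73 to 4.14 FPKM in KO; 3 of the 5 were tested and 1 of these rose in each genotype. The part of either in the falls of the group was not tested.

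Summed over the 43 genes, the level was 2367, 2283 and 2325 FPKM in untreated WT and 1526, 1518 and 1553 FPKM with AraC. In KO it was 2215, 2282 and 2329 FPKM untreated and 1509, 1495 and 1659 FPKM with AraC. Every AraC library was below every untreated library, and the highest AraC library was KO replicate 3. As a share of all FPKM in a library, which does not depend on the scaling between libraries, the group held 0.804% to 0.828% in untreated WT and 0.612% to 0.618% with AraC, and 0.777% to 0.802% in untreated KO and 0.584% to 0.600% with AraC.

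Of the settings run, the scaling moved the size of these falls most. With TPM, which sets each library to the same total, the median of all tested genes shifted to 0.16 in WT and 0.09 in KO, and the median of the 41 genes was -0.31 and -0.42; relative to all genes the group was thus -0.47 and -0.51, against -0.49 and -0.52 with the deposited scaling. The split of all calls in WT went from 3200 higher and 3406 lower to 5537 higher and 1656 lower with TPM, and in KO from 2628 higher and 3279 lower to 4056 higher and 1755 lower. With TPM 35 of the 41 genes fell in WT and 40 in KO.

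**Figure D1:**
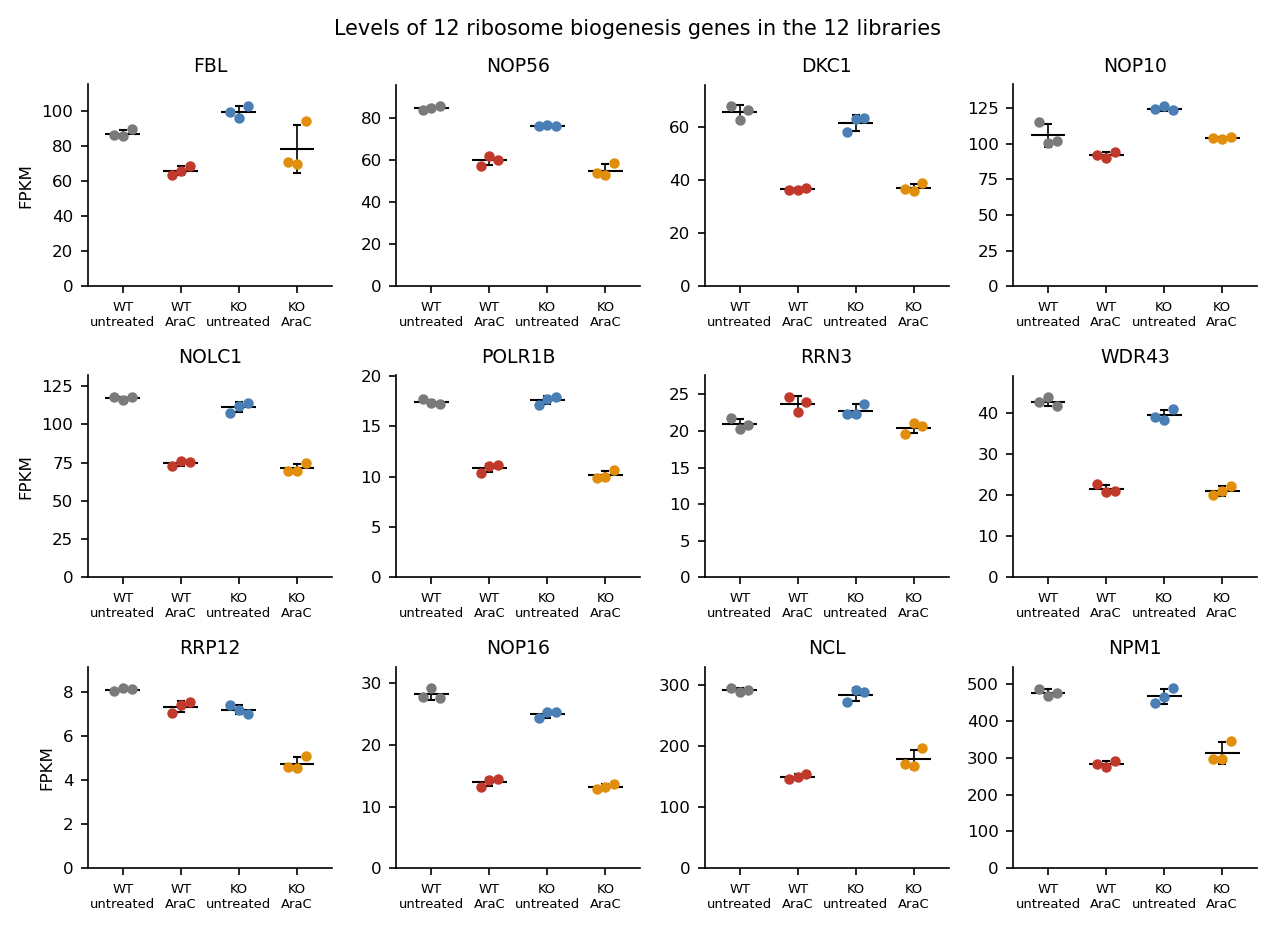
FPKM of 12 of the genes (vertical axes from 0) in the 4 groups on the horizontal axes; each point is a library, the line is the group mean and the bar is ± 1 SD of 3 libraries. AraC groups lie below untreated ones except for RRN3 in WT, where AraC libraries lie above, and FBL in KO replicate 3 with AraC, at 94.3 FPKM, stands above its other replicates.

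The box C/D snoRNP guides methylation of rRNA, and its 3 listed proteins fell together. FBL, fibrillarin, the methyltransferase of the particle (ENSG00000105202, chr19:39834458-39846414, minus strand), measured 86.3, 86 and 89.7 FPKM in untreated WT and 63.7, 66.1 and 68.7 FPKM with AraC (log2 difference -0.40, 95% interval -0.60 to -0.20, adjusted p = 0.0039). In KO it measured 99.7, 96.3 and 103 FPKM untreated and 71, 69.9 and 94.3 FPKM with AraC (log2 difference -0.36, 95% interval -0.56 to -0.16, adjusted p = 0.0084). The treated libraries were lower in both genotypes, but KO AraC replicate 3 came close to the untreated range, and without it the KO difference was -0.50. With quantile normalization the FBL differences were -0.16 in WT and -0.15 in KO, and neither passed the test (adjusted p = 0.08 and 0.12). NOP56 and NOP58, the scaffold proteins that hold the guide RNA, fell by similar amounts, NOP56 with -0.50 in WT and -0.47 in KO and NOP58 with -0.56 and -0.59. NOP56 was the steadiest of the 3, at 83.8, 84.9 and 85.7 FPKM in untreated WT and 57.4, 62 and 60.2 FPKM with AraC.

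The box H/ACA snoRNP guides pseudouridylation, and all 4 of its core proteins fell, by unequal amounts. DKC1, dyskerin, the pseudouridine synthase, which is also part of telomerase (ENSG00000130826, chrX:154762742-154777689, plus strand), measured 67.8, 62.6 and 66.4 FPKM in untreated WT and 36.4, 36.2 and 36.9 FPKM with AraC (log2 difference -0.84, 95% interval -0.94 to -0.74, adjusted p = 1.8e-07). In KO it measured 58.1, 62.8 and 63.5 FPKM untreated and 36.6, 36 and 38.8 FPKM with AraC (log2 difference -0.72, 95% interval -0.82 to -0.62, adjusted p = 5.6e-07). All treated libraries lay between 36 and 38.8 FPKM, below every untreated one. NHP2 fell by less (-0.59 in WT, -0.50 in KO), as did GAR1 (-0.50 and -0.52).

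NOP10, the smallest protein of the particle, had the shallowest fall of the 4. It measured 115, 100.1 and 102 FPKM in untreated WT and 92.1, 89.9 and 93.9 FPKM with AraC (log2 difference -0.20, 95% interval -0.30 to -0.09, adjusted p = 0.0049), and 124, 126 and 123 and 104, 103 and 105 FPKM in KO (log2 difference -0.26, 95% interval -0.36 to -0.16, adjusted p = 0.00099). The groups did not overlap in either genotype, but the WT fall depended on the scaling: the difference was 0.00 with TPM, -0.04 with plain read totals and 0.10 with quantile normalization, none of which passed the test, and the KO difference was -0.02 with quantile normalization, also not past it (adjusted p = 0.76). NOLC1, the chaperone that carries snoRNPs to the nucleolus, fell from 118, 116 and 118 to 72.5, 76.1 and 75.3 FPKM in WT (log2 difference -0.65, 95% interval -0.73 to -0.57, adjusted p = 3e-07) and by a like amount in KO (-0.63).

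RNA polymerase I lost RNA for its 3 listed subunits, while its initiation factor went the other way in WT. POLR1B, the second largest subunit (ENSG00000125630, chr2:112541915-112577150, plus strand), measured 17.7, 17.4 and 17.2 FPKM in untreated WT and 10.4, 11 and 11.2 FPKM with AraC (log2 difference -0.66, 95% interval -0.75 to -0.57, adjusted p = 4.8e-07). In KO it measured 17.2, 17.8 and 17.9 and 9.90, 10.0 and 10.7 FPKM (log2 difference -0.76, 95% interval -0.85 to -0.67, adjusted p = 2.5e-07). The treated libraries of both genotypes lay together near the bottom, with no overlap with the untreated. POLR1A, the largest subunit, fell, at -0.43 in WT and -0.49 in KO on the log2 scale, and POLR1C, which RNA polymerase III shares, at -0.40 and -0.66.

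RRN3, also called TIF-IA, recruits RNA polymerase I to the rRNA promoter and in other work is a target of growth and stress signalling (ENSG00000085721, chr16:15060022-15094317, minus strand). It measured 21.7, 20.3 and 20.9 FPKM in untreated WT and 24.6, 22.6 and 23.9 FPKM with AraC (log2 difference 0.18, 95% interval 0.08 to 0.27, adjusted p = 0.0073). In KO it measured 22.3, 22.4 and 23.8 FPKM untreated and 19.6, 21.1 and 20.7 FPKM with AraC (log2 difference -0.15, 95% interval -0.25 to -0.06, adjusted p = 0.016). AraC libraries were thus above the untreated ones in WT and below them in KO, with no overlap in either. The KO fall was no longer past the threshold without KO untreated replicate 3 (-0.13) or KO AraC replicate 1 (-0.12). The difference between the genotypes' AraC effects passed the test (log2 difference -0.33, 95% interval -0.47 to -0.19, adjusted p = 0.025); across all genes 2.69% did. With TPM the WT rise was 0.37 and the KO fall -0.02, the latter no longer past the threshold (nor at -0.03 with plain read totals or -0.06 with quantile normalization), and the difference between them -0.39. Leaving out 1 library in turn ended the call of that difference for 7 of the 12, with adjusted p between 0.051 and 0.064 in those, at differences between -0.30 and -0.34: WT untreated replicates 2 and 3, WT AraC replicates 1 and 3, KO untreated replicates 2 and 3, and KO AraC replicate 1. The pseudogenes RRN3P1 and RRN3P3 were at 3.63 and 2.53 FPKM in untreated WT, and reads could be split between them and RRN3.

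All 15 tested small-subunit factors fell in both genotypes, with a median of -0.45 in WT and -0.52 in KO. WDR43, a part of the processome that binds the start of the rRNA transcript (ENSG00000163811, chr2:28894643-28948222, plus strand), had the deepest fall: 42.6, 43.9 and 41.7 FPKM in untreated WT against 22.7, 20.7 and 21 FPKM with AraC (log2 difference -0.98, 95% interval -1.08 to -0.87, adjusted p = 1.2e-07). In KO it went from 38.9, 38.4 and 41 to 20.0, 20.9 and 22.2 FPKM (log2 difference -0.89, 95% interval -1.0 to -0.79, adjusted p = 2.6e-07). No treated library of either genotype came above 22.7 FPKM and no untreated one below 38.35 FPKM. BYSL, bystin, needed for the late small subunit, fell, at -0.72 in WT and -0.66 in KO, and RRP9, which binds the snoRNA of the processome, at -0.64 and -0.56.

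The middle of the small-subunit range held the helicase DDX10 (-0.55 in WT, -0.66 in KO), NOP14 (-0.59 and -0.52), HEATR1 (-0.55 and -0.47), UTP15 (-0.52 and -0.46) and NAT10, an acetyltransferase that modifies small-subunit rRNA (-0.45 and -0.59). TSR1, an assembly factor of the late particle, fell, at -0.42 in WT and -0.52 in KO, and IMP4, which helps the snoRNA pair with the transcript, at -0.38 and -0.41. WDR75 had -0.37 and -0.46, and NOB1, the nuclease that makes the last cut of small-subunit rRNA, -0.31 and -0.45. UTP20, another part of the processome, had -0.30 in WT and -0.56 in KO, and its WT fall did not pass the test with TPM (-0.12) or plain read totals (-0.16). In each of these genes every AraC library lay below every untreated library of its genotype.

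RRP12, an export factor of pre-ribosomal particles, and UTP4, known as cirhin, had the shallowest falls in WT. RRP12 (ENSG00000052749, chr10:97356358-97426076, minus strand) measured 8.05, 8.19 and 8.13 FPKM in untreated WT and 7.08, 7.42 and 7.56 FPKM with AraC (log2 difference -0.14, 95% interval -0.24 to -0.03, adjusted p = 0.036), against 7.41, 7.20 and 7.02 and 4.60, 4.57 and 5.10 FPKM in KO (log2 difference -0.55, 95% interval -0.66 to -0.45, adjusted p = 5.9e-06). The 3 lowest libraries of the 12 were KO with AraC. The AraC effect differed between the genotypes (log2 difference -0.42, 95% interval -0.57 to -0.27, adjusted p = 0.014), a difference that passed the test in each fit that left out 1 library. UTP4 measured 17.1, 17.6 and 16.8 and 15.8, 15.4 and 16 FPKM in WT (log2 difference -0.12, 95% interval -0.21 to -0.03, adjusted p = 0.03) and 15.4, 15.8 and 16.4 and 12, 12.4 and 13.2 FPKM in KO (log2 difference -0.33, 95% interval -0.42 to -0.24, adjusted p = 8.7e-05). In the main fit its effects were not shown to differ (log2 difference -0.21, 95% interval -0.34 to -0.08, adjusted p = 0.096). Without KO AraC replicate 3 the UTP4 effects did differ by the test (-0.24, adjusted p = 0.046). They also did so with TPM (-0.27, adjusted p = 0.014) and with plain read totals (-0.24, adjusted p = 0.023). The WT falls of both genes depended on the scaling, being 0.05 for RRP12 and 0.07 for UTP4 with TPM and 0.01 and 0.03 with plain read totals; with quantile normalization UTP4 was at -0.06, also not past the threshold. The WT call also ended in 5 of the 12 fits that left out 1 library for RRP12 (any WT untreated replicate, or WT AraC replicate 1 or 2) and in 4 for UTP4 (WT untreated or WT AraC replicate 1 or 2), with differences of -0.15 to -0.11 and -0.14 to -0.10.

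All 9 tested large-subunit factors fell in both genotypes, with a median of -0.55 in WT and -0.57 in KO. NOP16, a nucleolar protein of the early large particle (ENSG00000048162, chr5:176383938-176388975, minus strand), measured 27.9, 29.2 and 27.6 FPKM in untreated WT and 13.2, 14.3 and 14.5 FPKM with AraC (log2 difference -0.98, 95% interval -1.08 to -0.89, adjusted p = 5.3e-08), and 24.3, 25.4 and 25.3 and 12.9, 13.2 and 13.7 FPKM in KO (log2 difference -0.89, 95% interval -0.99 to -0.80, adjusted p = 1.1e-07). The mean level in WT was 28.2 ± 0.896 FPKM (SD) untreated and 14 ± 0.694 FPKM treated, and with WDR43 this was the deepest fall of the group in WT. MRTO4, which holds the place of a stalk protein on the immature large subunit (ENSG00000053372, chr1:19251539-19260128, plus strand), measured 60.3, 55.8 and 56.1 and 35.1, 37.3 and 35.5 FPKM in WT (log2 difference -0.66, 95% interval -0.75 to -0.58, adjusted p = 4.2e-07) and 47, 47.7 and 49.6 and 28.9, 30.2 and 29.9 FPKM in KO (log2 difference -0.69, 95% interval -0.78 to -0.60, adjusted p = 4.1e-07). Its 4 groups formed 4 separate levels, with WT above KO at each treatment.

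WDR12 and PES1 work together in a complex needed for large-subunit rRNA processing, and fell, at -0.74 and -0.55 in WT and -0.69 and -0.49 in KO. PPAN, a processing factor, fell, at -0.73 in WT with the widest interval of the group (-1.01 to -0.46); it had 118 to 280 reads per library and shares its locus with a readthrough transcript, PPAN-P2RY11. GNL3, nucleostemin, fell, at -0.50 and -0.46, NIP7 at -0.45 and -0.57, and the helicases DDX18 at -0.41 and -0.45 and DDX56 at -0.31 and -0.27. DDX56 was the shallowest of the 9 in both genotypes.

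The nucleolar proteins with several roles held the most abundant RNAs of the group. NPM1, nucleophosmin, a chaperone of the outer nucleolus that is often mutated in myeloid leukaemia (ENSG00000181163, chr5:171387116-171411137, plus strand), measured 485, 469 and 477 FPKM in untreated WT and 284, 275 and 291 FPKM with AraC (log2 difference -0.75, 95% interval -0.88 to -0.62, adjusted p = 2.6e-06), and 447, 465 and 489 and 297, 296 and 346 FPKM in KO (log2 difference -0.58, 95% interval -0.71 to -0.45, adjusted p = 2e-05). NCL, nucleolin, which binds rRNA transcripts and chromatin (ENSG00000115053, chr2:231453531-231483641, minus strand), measured 295, 289.5 and 292 and 146, 149.9 and 155 FPKM in WT (log2 difference -0.96, 95% interval -1.08 to -0.84, adjusted p = 3.3e-07) and 273, 292 and 289 and 172, 167 and 197 FPKM in KO (log2 difference -0.67, 95% interval -0.80 to -0.55, adjusted p = 4.5e-06). For both, the treated KO libraries lay above the treated WT libraries and replicate 3 was the highest of them. Without that library the KO differences were -0.65 for NPM1 and -0.74 for NCL.

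For NCL the difference between the genotypes' AraC effects did not pass the test (log2 difference 0.28, 95% interval 0.11 to 0.46, adjusted p = 0.088), nor without KO AraC replicate 3 (0.21, adjusted p = 0.057). It did pass under the other scalings, at 0.22 with TPM (adjusted p = 0.024) and 0.25 with plain read totals (0.031). With quantile normalization it passed at 0.15 (adjusted p = 0.041). Under another model, limma-voom on the recovered reads, it passed at 0.29 (adjusted p = 0.018). For NPM1, 45 pseudogenes are listed by name in the table, of which NPM1P27 was at 38.3 FPKM in untreated WT and 24.0 FPKM with AraC, so reads of the gene and its copies may have been split. LYAR, a nucleolar zinc finger protein of growing cells, fell, at -0.65 in WT and -0.75 in KO, DDX21, a helicase at rRNA genes, at -0.37 and -0.60, and NPM3, a relative of NPM1, at -0.31 and -0.36. The WT fall of NPM3 did not pass the test with TPM (-0.12), plain read totals (-0.16) or quantile normalization (-0.18).

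**Figure D2:**
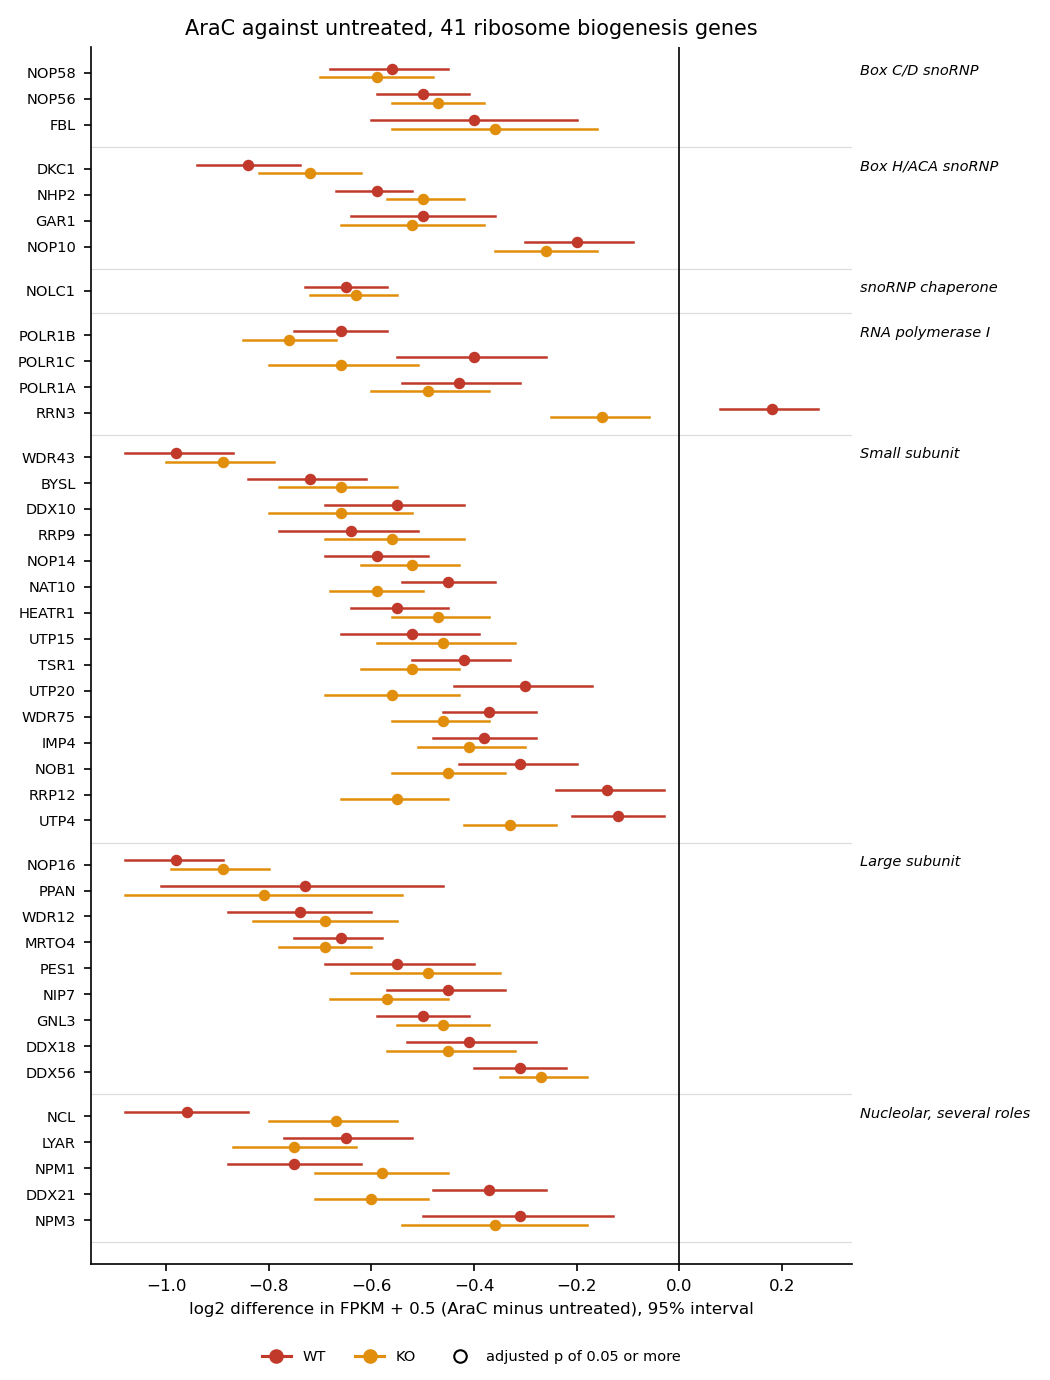
AraC minus untreated log2 difference of FPKM + 0.5 (horizontal axis) for the 41 tested genes (vertical axis, grouped by role) in WT and KO; points are estimates and lines their 95% intervals, and every point passed the adjusted threshold of 0.05. All points lie left of 0 except RRN3 in WT, at 0.18, and the shallowest WT falls are UTP4 at -0.12 and RRP12 at -0.14.

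Over the 41, Pearson's r between the WT and KO effects was 0.82 and Spearman's rho 0.78, a description over genes that share the libraries' depth and are not independent. None fell by 2-fold or more in both genotypes, the deepest being NOP16 and WDR43 at -0.98 in WT and -0.89 in KO. Between the mean level of a gene and the size of its AraC difference, rho was -0.15 in WT and 0.09 in KO. The 16 tested genes with CACGTG had a median of -0.50 in WT and -0.54 in KO, and the 21 without it -0.52 and -0.52.

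Another shared feature was the hosting of snoRNA genes. Of the 43 genes, 9 (20.9%) hold 28 annotated small nucleolar or Cajal body RNA genes within their span, against 200 of 10434 tested protein-coding genes (1.92%). NOP56 holds 5, among them SNORD56 and SNORD57, GNL3 holds 6, NOP58 holds 4, and NCL and WDR43 hold 3 each. The 9 hosts had a median AraC difference of -0.56 in WT and -0.66 in KO, and the other tested genes -0.47 and -0.52. The values are for the host genes, and those of the snoRNAs are not reported here.

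MYC fell more deeply than any gene of the group. It measured 154, 142 and 153 FPKM in untreated WT and 60.9, 65.3 and 66.5 FPKM with AraC (log2 difference -1.21, 95% interval -1.32 to -1.11, adjusted p = 2.6e-08), and 165, 159 and 165 and 65.5, 68.5 and 71.4 FPKM in KO (log2 difference -1.25, 95% interval -1.35 to -1.14, adjusted p = 2.9e-08). The treated and untreated libraries were far apart in both genotypes, and KO did not differ from WT beyond the test in either condition (0.077 and 0.17 as adjusted p). The part of MYC in the falls of the group was not tested.

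Most other genes of the pathway fell too. Of 126 tested outside the 43, 93 fell and 4 rose in WT and 103 fell and 1 rose in KO, 87 falling in both, with medians of -0.32 and -0.35. Among 39 small-subunit factors 30 fell in WT and 35 in KO, with WDR3 (-0.70 and -0.84), NOL6 (-0.62 and -0.85) and WDR46 (-0.68 and -0.71) the deepest. Among 52 large-subunit factors 40 fell in WT and 46 in KO, led by RRS1 (-0.81 and -0.87), MYBBP1A (-0.78 and -0.83) and EBNA1BP2 (-0.64 and -0.61). These counts too are read against the 25.6% and 24.7% of all genes that fell.

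Of 11 further genes of RNA polymerase I and its factors, 7 fell and 1 rose in WT and 7 fell in KO. The subunit gene CD3EAP fell, at -0.86 in WT and -0.58 in KO, TWISTNB at -0.47 and -0.44, and TAF1D, of the initiation complex, at -0.35 and -0.49. Of 10 snoRNP assembly genes 6 fell in WT and 7 in KO, including the helicases RUVBL1 (-0.37 and -0.49) and RUVBL2 (-0.41 and -0.42) and NUFIP1 (-0.39 and -0.44). Of 14 genes of the RNA exosome, which trims rRNA precursors, 10 fell in WT and 8 in KO, with EXOSC4 at -0.61 and -0.69, EXOSC5 at -0.55 and -0.56 and EXOSC7 at -0.50 and -0.41. EXOSC9 rose, by 0.21 in WT and 0.15 in KO. The KO rise of EXOSC9 lost its call with no filter (adjusted p = 0.057), with only the compared groups in the fit (0.1) and in 4 of the 12 fits that left out 1 library (KO untreated replicate 1 or 2, KO AraC replicate 2 or 3).

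Of 11 RNA polymerase III genes 4 fell and 3 rose in WT, with a median of -0.03, and 4 fell and 1 rose in KO, with a median of -0.11. POLR3G (-0.70 and -0.54) and POLR3E (-0.57 and -0.67) fell, and POLR3C rose (0.52 and 0.32). Of 7 RNA polymerase II genes 2 fell in WT and 1, POLR2B, in both genotypes (-0.41 and -0.35). In WT 36.4% were lower and 27.3% higher for RNA polymerase III and 28.6% lower for RNA polymerase II, near the 25.6% and 24.1% of all tested genes. In KO 36.4% were lower and 9.09% higher for RNA polymerase III and 14.3% lower for RNA polymerase II. Over all tested genes the KO shares were 24.7% and 19.8%. No RNA polymerase II gene was called higher in either genotype, on a list of only 7 genes. Whether the polymerase lists differ from each other was not tested.

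**Figure D3:**
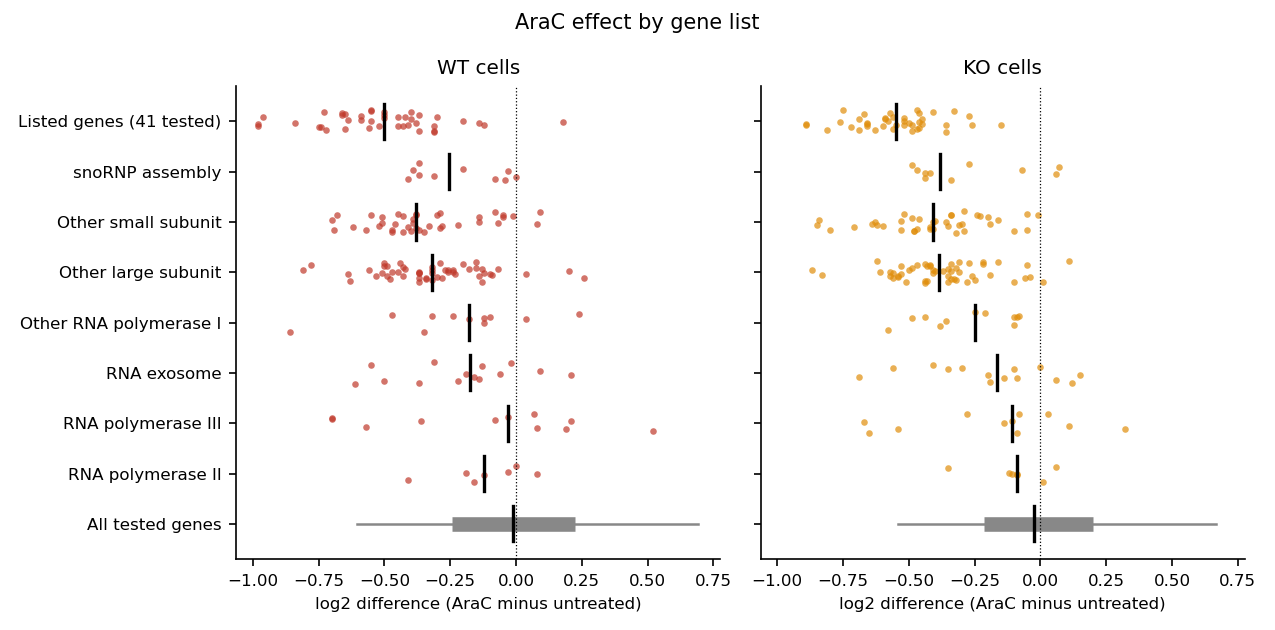
AraC minus untreated log2 difference (horizontal axes) in WT and KO for the gene lists on the vertical axis; points are genes, black bars are medians, and the grey bar and line for all tested genes span the 25th to 75th and the 5th to 95th percentiles. The median of the 41 tested genes is -0.50 in WT and -0.55 in KO, left of every other list, and that of all tested genes is -0.01 and -0.03. The lists were chosen with earlier results of these data known, so their order is a description and no test.

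Most of the genes did not pass the test between KO and WT. Without AraC, 7 of the 41 genes were lower in KO and 3 higher, with a median difference of -0.09, against 12.6% of all tested genes lower, 14.9% higher and a median of 0.01. With AraC, 11 were lower and 3 higher, with a median of -0.08, against 14.8% lower, 15.4% higher and a median of 0.00; without KO AraC replicate 3 they were 14 and 3, with a median of -0.11. With the deposited scaling, the 7 lower genes without AraC (17.1%) are near the background share and the 11 with AraC (26.8%) are above it. The count of lower genes moved with the scaling. It was 14 untreated and 24 with AraC under TPM, 15 and 22 with plain read totals, and 17 and 13 with quantile normalization. The counts over all 13300 tested genes moved too, from 1681 lower untreated and 1971 with AraC. They were 1859 and 3036 under TPM, 1958 and 2761 with plain read totals, and 1802 and 2217 with quantile normalization. Under each of these other scalings the untreated share of the listed genes was further above that of all genes. Both comparisons use the same genotypes but no common library. The summed B cell precursor markers given above were higher in KO than in WT at both treatments and the summed myeloid markers lower, with no overlap; their part in these differences was not tested.

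MRTO4 was the gene with the largest difference between untreated genotypes, at 57.4 ± 2.49 FPKM (SD) in WT and 48.1 ± 1.38 FPKM in KO (log2 difference -0.25, 95% interval -0.34 to -0.16, adjusted p = 0.00072), and it kept it with AraC (log2 difference -0.28, 95% interval -0.36 to -0.19, adjusted p = 0.00041). Also lower in untreated KO were HEATR1 (-0.18), UTP20 (-0.18), NOP16 (-0.17), DDX21 (-0.17), RRP12 (-0.16) and NOP56 (-0.15). The calls of UTP20, DDX21, RRP12 and NOP56 lay close to the threshold, with adjusted p of 0.046, 0.029, 0.027 and 0.018. The UTP20 call also ended with TPM (adjusted p = 0.079) and plain read totals (0.053), and those of UTP20 and DDX21 with no filter on low values (0.086 and 0.06). Over the 12 fits that left out 1 library these calls ended in 9, 3, 5 and 3, and that of NOP16 in 1, without WT untreated replicate 2. Leaving out each library in turn gave 3 to 11 lower genes, with 4 without WT untreated replicate 1 or 2, 3 without WT untreated replicate 3 and 11 without KO AraC replicate 3.

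The genes higher in untreated KO were 2 of the 4 box H/ACA proteins and NAT10. FBL, at a difference of 0.19, did not pass in the main fit. It did pass with limma-voom (adjusted p = 0.047), with only the compared groups in the fit (0.0088) and without KO AraC replicate 3 (0.003). NHP2 measured 120.2, 114 and 119 FPKM in untreated WT and 126, 126 and 132 FPKM in untreated KO (log2 difference 0.12, 95% interval 0.05 to 0.19, adjusted p = 0.017), and with AraC 77.6, 77.8 and 77.9 and 91.8, 88.5 and 91.5 FPKM (log2 difference 0.22, 95% interval 0.15 to 0.29, adjusted p = 0.00047). NOP10 was higher in KO without AraC (log2 difference 0.24, 95% interval 0.14 to 0.34, adjusted p = 0.0029) and with it (log2 difference 0.17, 95% interval 0.07 to 0.28, adjusted p = 0.016). KO libraries lay above WT ones in both genes at both treatments, DKC1 and GAR1 of the same particle did not pass the test in either, and the NHP2 untreated difference was 0.06 and no longer past the threshold with quantile normalization. The NOP10 difference with AraC depended on the scaling too, at 0.10 with TPM, 0.12 with plain read totals and 0.05 with quantile normalization, none past the threshold (adjusted p = 0.14, 0.053 and 0.5). NAT10 had a difference of 0.13 (adjusted p = 0.042), and its call ended with quantile normalization (0.10, adjusted p = 0.057), with no filter (adjusted p = 0.063) and in 9 of the 12 fits that left out 1 library; without KO untreated replicate 3 or WT untreated replicate 2, only 1 of the 3 higher calls held.

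With AraC, the largest differences between the genotypes were in RRP12 (log2 difference -0.58, 95% interval -0.69 to -0.47, adjusted p = 7.3e-06) and in UTP20, which measured 9.78, 8.75 and 8.94 FPKM in treated WT and 6.59, 7.19 and 6.14 FPKM in treated KO (log2 difference -0.44, 95% interval -0.57 to -0.31, adjusted p = 0.00027). DDX21 measured 83.9, 79.9 and 83.3 and 60.2, 60.8 and 66 FPKM (log2 difference -0.40, 95% interval -0.51 to -0.29, adjusted p = 0.00013) and POLR1C 5.16, 5.31 and 5.55 and 4.18, 3.64 and 4.25 FPKM (log2 difference -0.37, 95% interval -0.52 to -0.22, adjusted p = 0.0016). In these 4 genes the treated KO libraries were all below the treated WT libraries. UTP4 (-0.32), LYAR (-0.24), RRN3 (-0.21), TSR1 (-0.16), IMP4 (-0.16) and NOP56 (-0.12) were lower too. Of these, the NOP56 call ended with no filter (adjusted p = 0.073), with only the compared groups in the fit (0.14) and in 10 of the 12 fits that left out 1 library, the IMP4 call in 4 (WT or KO AraC replicate 1 or 3) and the TSR1 call in 2 (WT AraC replicate 1 and KO AraC replicate 2); the NOP10 call above ended in 1 (WT AraC replicate 2). NCL was higher in treated KO (log2 difference 0.25, 95% interval 0.12 to 0.37, adjusted p = 0.0066), and at 0.17 still so without KO AraC replicate 3. FBL was at 0.23, not past the threshold in the main fit, and at 0.09 without KO AraC replicate 3 (adjusted p = 0.13). The FBL difference did pass with limma-voom (adjusted p = 0.015), with the replicate number as a block (0.043) and without KO AraC replicate 2 (0.035).

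**Figure D4:**
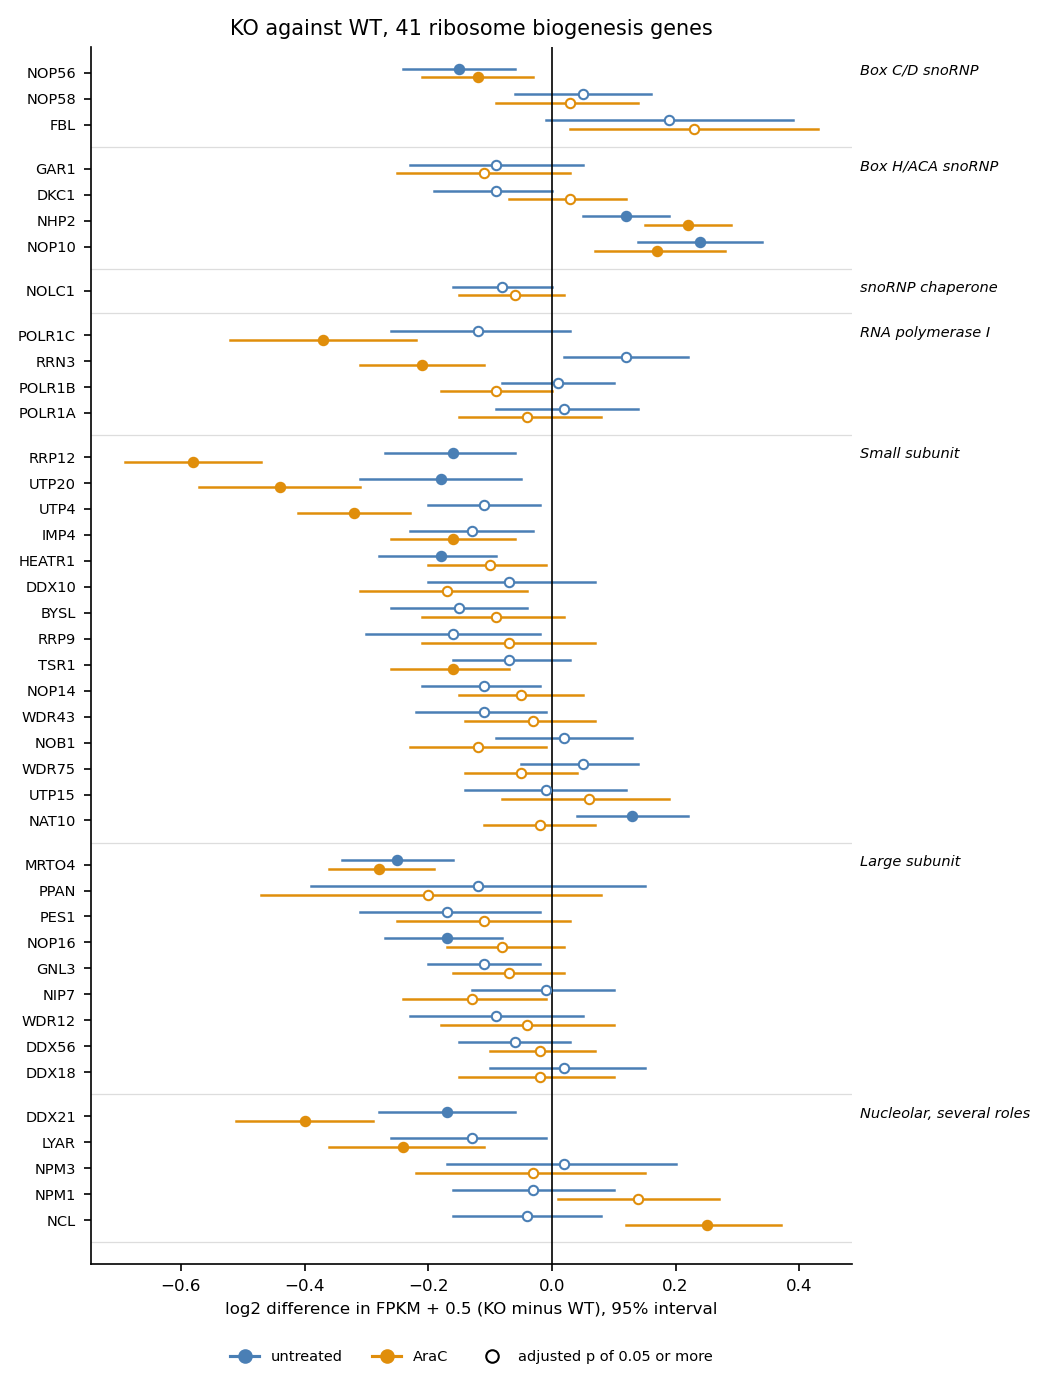
KO minus WT log2 difference of FPKM + 0.5 (horizontal axis) for the 41 tested genes (vertical axis, grouped by role) without and with AraC; lines are 95% intervals, and filled points passed the adjusted threshold of 0.05. Most points lie within 0.2 of 0, RRP12 with AraC lies farthest left at -0.58, and FBL, which did not pass the test, NCL, NHP2 and NOP10 lie to the right with AraC, at 0.23, 0.25, 0.22 and 0.17.

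The AraC effect itself differed between the genotypes for 2 of the 41 genes, RRN3 and RRP12, both lower in KO, against 1.8% of all tested genes lower and 0.887% higher. The median difference of effects over the 41 was -0.03. For DDX21 the difference was -0.23 with an interval of -0.39 to -0.08 (adjusted p = 0.11), for POLR1C -0.25 (-0.46 to -0.05, adjusted p = 0.18), and for UTP20 -0.26 (-0.44 to -0.07, adjusted p = 0.14). The count was 5 lower and 1 higher with TPM and 4 lower and 1 higher with limma-voom, NCL being the higher one and DDX21 among the lower in both. A difference that misses the threshold does not show that the genotypes responded alike.

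The 2 genes that did not pass the filter are listed at low levels next to near copies or overlapping genes. PWP2, a core protein of the small-subunit processome, was at 0.0651, 0.0823 and 0.0553 FPKM in untreated WT, with at most 0.854 FPKM in any library. A gene at another place on the same chromosome, FP565260.1 (chr21:5130871-5154734), named here after its values were seen because the annotation describes it as a PWP2 homologue, measured 3.76, 4.86 and 4.57 FPKM in untreated WT and 2.30, 3.23 and 2.47 FPKM with AraC (log2 difference -0.63, adjusted p = 0.0015), and fell in KO as well (-0.56, adjusted p = 0.0038). NOP2, a methyltransferase of large-subunit rRNA, was at 0.440, 0.432 and 0.191 FPKM in untreated WT with 13 to 32 reads per library; it overlaps AC006064.6 on the same strand, which is listed at 0 in every library. How reads that match several places were counted is not given in the sources read here.

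Other overlaps touch tested genes. Of the 43, 14 overlap a protein-coding gene on the opposite strand and 3 (NOP2, PPAN and UTP4) one on the same strand. The opposite-strand group includes RRN3 with PDXDC1, MRTO4 with EMC1 and NHP2 with RMND5B. No source read here gives the strandedness of the libraries, so reads from such partners cannot be told apart from the listed gene's own.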

How the data were processed

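The 12 libraries are in 1 table of FPKM per gene, deposited by the authors. The submitters' processing notes name fastp, HISAT2 version 2.0.5, featureCounts version 1.5.0-p3 and the build names GRCh38 and hg38, without their order or settings. FPKM times gene length was divided by its smallest value above 0 in each library, which was taken as 1 read. This gave whole reads (100% of the values, within 0.001 reads), and from these the read totals. The scaling between libraries in the deposited values is not that of those totals. Genes with at least 1 FPKM in at least 3 libraries (13300) entered a single limma 3.58.1 fit (R 4.3.3) of log2(FPKM + 0.5), with a mean for each group, a variance trend and 8 residual degrees of freedom. P-values are two-sided and adjusted over all genes by Benjamini-Hochberg, with a threshold of 0.05. The 5 contrasts were AraC against untreated within each genotype, KO against WT at each treatment, and the difference of the AraC effects. Fold changes on this scale understate those of low genes. The procedure was tested on simulated data. Groups came from the labels, and no pair of libraries within a group agreed within sampling noise (chi-square per degree of freedom of at least 2.24).

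The members and gene lists were chosen with earlier results of these data known. Any of the 43 could be named; from each other list the text names up to 3 genes with the largest mean AraC effect past the threshold in both genotypes, and those that went against their list in both. One gene that this rule names is not reported here. Sequences came from RefSeq tables (GRCh38.p14), read with Python 3.11.15, and gene positions and overlaps are those of the deposited table. The alternatives changed the pseudocount (0.1 and 1), the filter, the scaling, the model (limma-voom), the blocking, the groups fitted and, in turn, each library.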

Additional observations from a re-analysis of the deposited data

Results flagged for a closer look

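The AraC effect differed between the genotypes, by the test of the difference itself, for 2 of the 41 tested genes (4.88%). It also did so for 2 of 126 other tested genes of the pathway (1.59%), against 2.69% of all tested genes. For RRN3, the RNA polymerase I initiation factor, the effect in KO minus that in WT was log2 difference -0.33, 95% interval -0.47 to -0.19, adjusted p = 0.025, and for RRP12, the export factor, log2 difference -0.42, 95% interval -0.57 to -0.27, adjusted p = 0.014; their values in every library stand in the report.

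TTF1 and NIFK are named here after their values were seen. TTF1, which ends transcription by RNA polymerase I, measured 27.8, 28.6 and 26.9 FPKM in untreated WT and 32.4, 32.1 and 34 FPKM with AraC, and 33.9, 37.5 and 35.6 and 32.5, 35.2 and 33 FPKM in KO. It rose in WT (log2 difference 0.24, 95% interval 0.14 to 0.34, adjusted p = 0.0013), the change in KO did not pass the test (log2 difference -0.09, 95% interval -0.19 to 0.01, adjusted p = 0.15), and the effects differed (log2 difference -0.33, 95% interval -0.47 to -0.18, adjusted p = 0.028). TTF1 was also higher in untreated KO than in untreated WT (log2 difference 0.36, 95% interval 0.25 to 0.46, adjusted p = 0.00017), and the 2 treated groups overlapped. The call of the difference between the effects held in only 4 of the 12 fits that left out 1 library (WT untreated replicate 2, KO untreated replicate 1, KO AraC replicate 2 or 3).

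NIFK, a nucleolar protein that binds the proliferation marker Ki-67, fell in both genotypes, from 52.5, 51.1 and 49.3 to 43, 41.5 and 43.2 FPKM in WT and from 50.1, 52.6 and 53.4 to 35.7, 34.9 and 37.1 FPKM in KO. With TPM the WT difference was -0.06 and did not pass the test (adjusted p = 0.1). The fall was deeper in KO (log2 difference -0.27, 95% interval -0.39 to -0.15, adjusted p = 0.027). The treated KO libraries were the lowest of the 4 groups, and the untreated groups overlapped. The call held in only 3 of those 12 fits (without WT untreated replicate 1, KO untreated replicate 1 or KO AraC replicate 3), and with the replicate number as a block the adjusted p was 0.052.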

How the results depend on the processing

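The 2 planned count-model fits (edgeR and DESeq2) were not run, since the deposited unit is FPKM, and a fit of only the groups compared gives no difference of effects. Of the 43 genes, 35 to 40 fell in WT and 38 to 41 in KO under every setting run, and 38 to 40 and 40 to 41 when 1 library was left out. Precision is limited by 3 libraries per group and, for PWP2, NOP2 and PPAN, by few reads. The cause of the changes below was not tested.

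With TPM, all genes split into 5537 higher and 1656 lower in WT and 4056 and 1755 in KO, and the median of the 41 tested genes was -0.31 and -0.42. In treated KO against WT, TPM gave 1353 genes higher and 3036 lower, 24 members lower and a median of -0.15. Untreated, 14 members and 1859 of all genes were lower. For the difference of effects TPM gave 493 genes lower, 5 members lower, 1 higher and a median of -0.09. With plain read totals the splits were 5131 and 1952 in WT and 3991 and 1901 in KO, with medians of -0.35 and -0.43. In KO against WT, 15 members were lower untreated (1958 of all genes) and 22 with AraC (2761 of all genes). The member median with AraC was -0.13. The difference of effects had 415 genes lower, 4 members lower and 1 higher. Quantile normalization gave medians of -0.39 and -0.42. In untreated KO it gave 17 members lower and 1 higher (1802 and 1912 of all genes), and for the difference of effects 1 higher. Limma-voom gave 5 members higher in treated KO, and for the difference of effects 243 genes higher, 382 lower, 4 members lower and 1 higher. A filter at 5 FPKM gave 2008 genes higher in WT and 1628 in KO, and a pseudocount of 1 a KO median of -0.52. The WT difference reversed to 0.05 (TPM) and 0.01 (plain totals) for RRP12, to 0.07 and 0.03 for UTP4, and to 0.10 (quantile) for NOP10, none past the threshold.

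Same-numbered replicates showed little common deviation (correlations of -0.05 to 0.12). With 3 libraries per group these values do not show a pairing by number and cannot exclude one. With the replicate number as a block, 39 members fell in WT and 41 in KO, 8 were lower and 2 higher in untreated KO, 11 lower and 4 higher with AraC, and 2 differed in effect; 76 genes in all were higher for the difference of effects.

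Leaving out 1 library gave, for the difference of effects, 30 to 112 genes higher, 97 to 234 lower, 1 to 3 members lower and a median of -0.05 to 0.01. It gave a median of -0.11 to -0.06 in treated KO against WT, and 3 to 11 members lower and 1 to 4 higher untreated.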
